A study of Mus musculus with 3 samples.

Results

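The unfolded protein response and protein folding genes of the endoplasmic reticulum (ER) were read in lymphoma cells of the pBIC mouse. They are 36 genes chosen by function and matched by symbol, of 37646 genes listed per library. All 36 had a row in every library, and all 36 passed the filter on low counts. They comprise 3 stress sensors, 2 transcription factors, 9 lumenal chaperones and cochaperones, 2 lectin chaperones, 8 isomerases and oxidases, 7 degradation genes and 5 translocation genes.

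Messenger RNA came from 3 splenic lymphomas, 1 library for each tumour, from C57BL/6 mice of the genotype p53F/F, Blimp1F/F, IKK2castopF/stopF, Cg1Cre/+. In these mice Cre is expressed from the Ighg1 locus, which is switched on in activated B cells, where it is designed to delete the floxed p53 and Blimp1 genes and to release an active IKK2 allele. Gene counts cannot show how many cells recombined. Spleens came from moribund mice of unstated age, and B220+GFP+ cells were sorted after dead cells were excluded. All libraries belong to 1 group, so the values describe the tumours and the spread between them, and no lymphoma is set against a normal B cell. The immunised germinal centre controls that the design names are not analysed here. Nothing in the labels says that the tumours arose independently, so p-values refer to these samples alone and not to pBIC tumours at large.

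The ER folds and glycosylates proteins of the membrane and secretory route. When unfolded protein accumulates, the chaperone BiP leaves 3 sensors in the ER membrane. IRE1 (Ern1) splices the mRNA of the factor XBP1, PERK (Eif2ak3) slows translation and raises the factors ATF4 and CHOP, and ATF6 is cut to release a factor of its own. XBP1 and ATF6 act on promoters of chaperone, disulfide isomerase and degradation genes. In plasma cells this machinery is expanded for antibody secretion, downstream of BLIMP1 and XBP1. Counts per gene cannot separate spliced from unspliced Xbp1 mRNA, and RNA says nothing of PERK or ATF6 activity.

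Libraries held 15022902 to 15141009 counts. B cell markers were present, with 9 of 9 at or above 1 CPM (counts scaled to a common library size) in every tumour. Among markers of plasma cells 8 of 11 were, but Sdc1, Tnfrsf17 and Cd93 stayed below 1 CPM throughout. The macrophage list summed to 154 to 217 CPM, of which Cd68 alone gave 123 to 142 CPM, and the T cell list summed to 88.9 to 132 CPM. Immunoglobulin genes took 1.22% to 1.55% of counts. In bulk cells, fewer cells that express a gene and less RNA per cell cannot be told apart.

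The 36 genes together made up 1.17% of the counts of tumour 1, with an exact 95% binomial (Clopper-Pearson) interval of 1.16 to 1.17%. The share was 1.38% for tumour 2, interval 1.37 to 1.38%, and 0.959% for tumour 3, interval 0.954 to 0.964%. Tumour 2 held the largest share and tumour 3 the smallest, while tumour 3 had the largest immunoglobulin share. These intervals cover counting error only. Of the 36 genes, 35 reached 10 CPM in every tumour and 24 reached 100 CPM, against 7774 and 1805 of the 11478 genes that passed the filter. The median of their mean levels was 221 CPM, against 33.4 CPM over those 11478 genes. On the TPM scale, which also divides by exon length, the median was 138 against 22.4. Levels of different genes are compared below in TPM, and tumours are compared for the same gene in CPM.

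**Figure D1:**
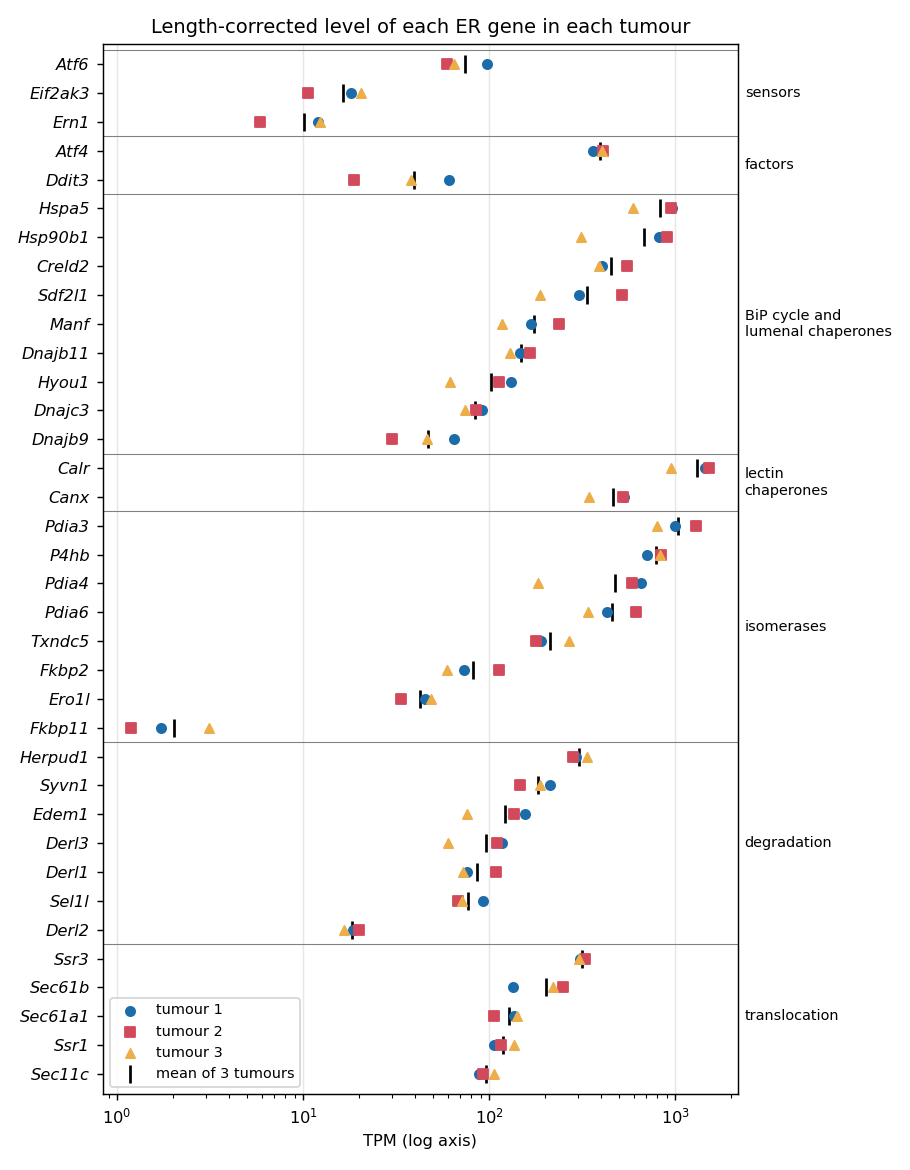
Level of each of the 36 genes in TPM (log axis), with 1 symbol per tumour and a bar for the mean of the 3 tumours. Genes are grouped by role. Calr and Pdia3 lead at means of 1309 and 1034 TPM, and Fkbp11 stands apart at 2.02 TPM.

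Some of the promoters hold a known stress element. Promoter letters were not used to choose the genes, but XBP1 and ATF6 are known to act on genes of these roles. The share of genes with their site is therefore not independent of the choice. RefSeq windows of GRCm38.p6, from 250 bases before to 50 after each start, were found for 30 of the 36 genes, 1 of them by a synonym. Atf6, Hyou1, Manf, Derl1, Sec61a1 and Sec11c were not among them. The ER stress element (ERSE), the site of ATF6 and XBP1 with the factor NF-Y, was searched on both strands as CCAAT and CCACG with 9 bases of any kind between them. It was present in 9 of 30 genes (30%), against 1 of 89 genes of the wider list (1.12%) and 37 of 27025 genes with a window (0.137%). ERSE-II, searched as ATTGG and CCACG with 1 base between them, was present in 2 of 30, against 12 of 27025 (0.0444%). The matches are shown because they recur in several of the most abundant chaperone genes. Each is written 5′ to 3′ in the direction of the element, with its ends in capitals. Hsp90b1 holds a pair on opposite strands.
Hspa5, chr2:34772025-34772043, plus strand: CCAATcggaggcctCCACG
Hsp90b1, chr10:86705638-86705656, minus strand: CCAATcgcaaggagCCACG
Hsp90b1, chr10:86705533-86705551, plus strand: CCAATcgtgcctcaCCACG
Calr, chr8:84847075-84847093, plus strand: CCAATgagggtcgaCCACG
Canx, chr11:50325800-50325818, minus strand: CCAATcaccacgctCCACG
Pdia6, chr12:17266491-17266509, plus strand: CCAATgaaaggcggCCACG
Dnajc3, chr14:118937827-118937845, plus strand: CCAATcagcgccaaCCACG
Creld2, chr15:88819520-88819538, minus strand: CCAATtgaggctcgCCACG
Derl3, chr10:75893242-75893260, minus strand: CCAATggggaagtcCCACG
Syvn1, chr19:6046532-6046550, plus strand: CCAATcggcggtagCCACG
Herpud1 (ERSE-II), chr8:94386377-94386387, plus strand: ATTGGgCCACG
Dnajb11 (ERSE-II), chr16:22857852-22857862, plus strand: ATTGGcCCACG

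The middle bases differed between genes while the ends were fixed by the search. The distance to the start also varied, from -212 for the first base of the far element of Hsp90b1 to -44 for that of Syvn1, and the ERSE-II of Dnajb11 began at position 8 after the start. No mismatch was allowed in the ends of ERSE or ERSE-II, so near matches were not counted. The Pdia3 window has both ends of ERSE at the right spacing but for the last base, which is A in place of G. The core of the XBP1 site known as UPRE, TGACGTGG, was found in Txndc5 alone of the 30 (193 of 27025 genes, 0.714%). The C/EBP-ATF element of ATF4 and CHOP, searched as TGATGNAAT, was in 0 of 30 and in 293 of 27025 genes (1.08%). That search fixed the last base as T, so a site with another last base was not counted. The Herpud1 window, read on the reverse strand, matches every base of that string but the last, where it has C. A search with the last base left free was not run, so the 0 of 30 describes this string alone. The ends of ERSE were also counted alone, a search chosen after seeing the data. Both CCAAT and CCACG, anywhere and on either strand, were in 22 of 30 genes (73.3%), against 13.3% of all genes.

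**Figure D2:**
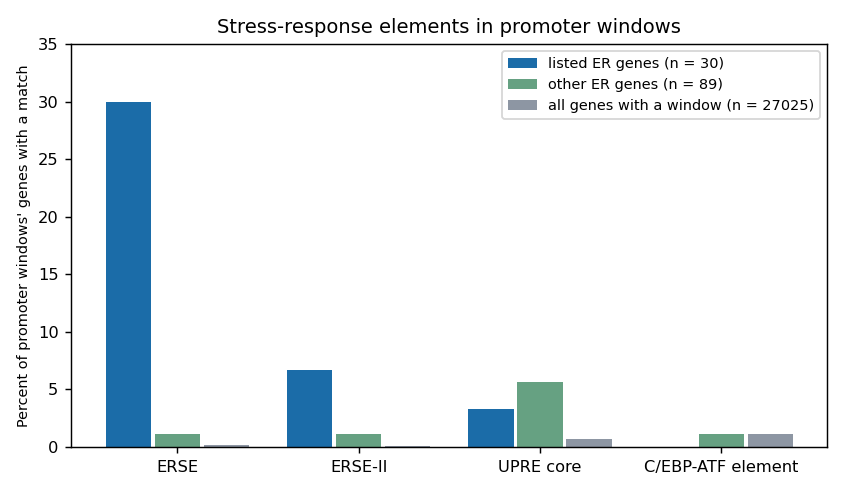
Percent of genes whose promoter window holds each element, for the listed ER genes, the wider ER list and all genes with a window. ERSE stands at 30% in the listed genes, 1.12% in the wider list and 0.137% in all genes.

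The windows of Hspa5, Hsp90b1 and Pdia4 are printed whole. Hspa5 is the textbook ERSE gene, Hsp90b1 holds 2 full matches, and Pdia4, the gene with the widest range between tumours, has none. Capitals mark every CCAAT and CCACG, or their reverse complements ATTGG and CGTGG, and each window runs 5′ to 3′ with the gene.
Hspa5, chr2:34771840-34772139, plus strand: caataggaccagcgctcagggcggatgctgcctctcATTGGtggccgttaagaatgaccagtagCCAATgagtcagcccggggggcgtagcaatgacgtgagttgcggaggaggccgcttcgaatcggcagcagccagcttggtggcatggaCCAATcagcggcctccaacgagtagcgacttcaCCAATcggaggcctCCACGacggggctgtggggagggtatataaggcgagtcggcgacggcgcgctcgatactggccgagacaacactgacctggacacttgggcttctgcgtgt
Hsp90b1, chr10:86705395-86705694, minus strand: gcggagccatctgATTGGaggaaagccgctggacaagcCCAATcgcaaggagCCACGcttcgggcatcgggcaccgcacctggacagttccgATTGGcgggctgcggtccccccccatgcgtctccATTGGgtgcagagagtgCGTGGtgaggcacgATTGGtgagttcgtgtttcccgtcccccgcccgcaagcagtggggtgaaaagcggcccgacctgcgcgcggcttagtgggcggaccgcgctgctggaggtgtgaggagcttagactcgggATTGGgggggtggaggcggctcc
Pdia4, chr6:47813463-47813762, minus strand: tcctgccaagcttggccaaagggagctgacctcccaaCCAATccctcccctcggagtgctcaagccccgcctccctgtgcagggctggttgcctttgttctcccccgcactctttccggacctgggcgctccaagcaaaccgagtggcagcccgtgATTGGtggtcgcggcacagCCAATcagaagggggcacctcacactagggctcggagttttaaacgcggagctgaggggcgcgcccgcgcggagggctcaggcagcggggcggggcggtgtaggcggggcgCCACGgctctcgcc

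In the Pdia4 window CCAAT or its reverse complement stands 3 times and CCACG once, after the RefSeq start, and no pair has the spacing of ERSE. The annotation used for exon lengths starts Pdia4 at 47813430, so the whole window lies before that start. A match is a description of letters, and binding was not measured.

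The sensors were among the lowest of the genes. Ern1 (ENSMUSG00000020715.9, chromosome 11, 106394650 to 106487852, mm10) had 30.1, 17.5 and 33.2 CPM in tumours 1, 2 and 3. Eif2ak3 (ENSMUSG00000031668.14, chromosome 6, 70844515 to 70905245) had 33.4, 23.3 and 40.9 CPM. Both kinase sensors were lowest in tumour 2. Atf6 (ENSMUSG00000026663.6, chromosome 1, 170704674 to 170867771) had 275, 200 and 197 CPM, highest in tumour 1. Per length the means were 10.1 ± 3.64 TPM for Ern1, 16.4 ± 5.19 TPM for Eif2ak3 and 73.8 ± 20.7 TPM for Atf6 (SD, n = 3). Atf6 was thus the most abundant sensor transcript in every tumour, as the plot of TPM by gene shows. The difference Ern1 minus Eif2ak3 was -0.67 ± 0.10 in log2(TPM + 1), with the same sign in 3 of 3 tumours, and -0.28 without division by length. A two-sided exact sign-flip test gave p = 0.25, the smallest 3 tumours allow (0.333 after Benjamini-Hochberg adjustment over 8 pairs of genes).

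The 2 transcription factors of the PERK arm were at very different levels. Atf4, which switches on amino acid and stress genes, had 261, 352 and 316 CPM in tumours 1, 2 and 3. Ddit3, which encodes the pro-death factor CHOP, had 32.0, 11.7 and 21.5 CPM. Tumour 2 had the highest value of Atf4 and the lowest of Ddit3. Per length Atf4 stood 3.43 ± 0.91 above Ddit3 on the log2(TPM + 1) scale, or 10.8-fold. All 3 tumours had that sign (exact sign-flip p = 0.25, adjusted 0.333). The difference was 2.55, 4.37 and 3.38 in tumours 1, 2 and 3. Neither gene passed the test of variation between tumours (edgeR adjusted p = 0.951 for Ddit3 and 0.997 for Atf4).

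BiP and its partners were abundant, and most of them shared 1 order of the tumours. Hspa5, which encodes BiP (ENSMUSG00000026864.13, chromosome 2, 34771970 to 34777547), had 1237, 1460 and 828 CPM in tumours 1, 2 and 3. Hsp90b1 (ENSMUSG00000020048.13, chromosome 10, 86690209 to 86705509), which encodes the ER HSP90 chaperone GRP94, had 1004, 1331 and 413 CPM. Tumour 3 was lowest for both, and further below the others for Hsp90b1. Their difference, Hspa5 minus Hsp90b1, was 0.23 and 0.06 in tumours 1 and 2 and 0.93 in tumour 3 in log2(TPM + 1) (mean 0.41 ± 0.46, n = 3, exact sign-flip p = 0.25, adjusted 0.333). Without tumour 3 the mean was 0.15. Exons of Hsp90b1 overlap 1810014B01Rik on the opposite strand over 415 nt, and the use of strand is not given in the sources used here.

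Sdf2l1 (ENSMUSG00000022769.9, chromosome 16, 17130138 to 17132383), which keeps misfolded clients in the BiP cycle, had 102, 208 and 68.5 CPM. Manf, a cochaperone that holds BiP on its clients, had 180, 304 and 136 CPM. Hyou1, the nucleotide exchange factor of BiP, had 289, 298 and 146 CPM. In each of these genes tumour 2 was highest and tumour 3 lowest, although tumours 1 and 2 differed little for Hyou1. Creld2, a stress-induced folding factor, had 168, 276 and 176 CPM, with tumour 2 apart from the others. Dnajb11 and Dnajc3, J-domain partners of BiP, had narrower ranges of 139 to 196 and 125 to 160 CPM. Dnajb9, the J-domain protein that holds IRE1 in check, ran the other way, with 50.4, 27.9 and 39.2 CPM and its lowest value in tumour 2.

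The lectin chaperones, which bind monoglucosylated glycoproteins, had the same order of tumours as BiP by CPM. Calr (ENSMUSG00000003814.8, chromosome 8, 84841850 to 84846934), the soluble member, had 1275, 1604 and 904 CPM. Canx, its membrane-bound relative, had 764, 891 and 530 CPM. Per length Calr exceeded Canx by 1.44, 1.55 and 1.47 in log2(TPM + 1), mean 1.49 ± 0.06 (SD, n = 3), 2.80-fold, with an exact sign-flip p of 0.25 (adjusted 0.333). This was the steadiest of the 8 differences, although its size moved to 0.78 without division by length. Calr had the highest mean of the 36 genes, 1309 ± 313 TPM, above 99.4% of the tested genes.

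Disulfide isomerases were among the higher genes of the 36, from 212 TPM for Txndc5 to 1034 TPM for Pdia3. Pdia3, the isomerase that works with Calr and Canx on glycoproteins, had 962, 1484 and 830 CPM. P4hb, the founding protein disulfide isomerase, had 616, 878 and 780 CPM, and here tumour 1 was lowest. Pdia6, which also damps IRE1 signalling, had 490, 837 and 419 CPM. Pdia4 (ENSMUSG00000025823.9, chromosome 6, 47796141 to 47813430) had 480, 515 and 145 CPM, so tumours 1 and 2 were close and tumour 3 was far below them. The P4hb minus Pdia3 difference changed sign between tumours (-0.51, -0.62 and 0.04 in log2(TPM + 1), exact sign-flip p = 0.5, adjusted 0.571).

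Txndc5, a plasma cell-associated isomerase, was instead highest in tumour 3, with 262, 291 and 398 CPM. Ero1l, the oxidase that recharges disulfide isomerases, had a narrow range of 65.0 to 85.2 CPM. The prolyl isomerase Fkbp2 had 36.5, 67.2 and 32.3 CPM. Fkbp11 (ENSMUSG00000003355.7, chromosome 15, 98724366 to 98728198), a prolyl isomerase known for its rise in antibody-secreting cells, had 22, 17 and 43 counts, or 1.42, 1.18 and 2.80 CPM. It was the only 1 of the 36 below 10 CPM, and its 2.02 ± 1.0 TPM lay above just 6.80% of the tested genes. The next lowest means were 10.1 TPM for Ern1 and 16.4 TPM for Eif2ak3.

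Degradation genes were intermediate and most were steady. Herpud1, an organiser of the degradation channel, had 208 to 259 CPM, Syvn1, the ubiquitin ligase HRD1, 259 to 315 CPM, and its adaptor Sel1l 201 to 242 CPM. These 3 had highest over lowest ratios of 1.2 to 1.24. Edem1, which delivers mannose-trimmed glycoproteins, had 305, 319 and 162 CPM and was lowest in tumour 3. Derl3, the derlin linked to secretory cells, had 71.8, 80.5 and 39.4 CPM, and Derl1 and Derl2 had 77.4 to 133 and 44.1 to 58.7 CPM. Derl1 minus Derl2 was 2.14 ± 0.22 on the log2(TPM + 1) scale, a ratio of 4.42, and positive in each tumour (exact sign-flip p = 0.25, adjusted 0.333). Its size was 0.92 without division by length and 1.36 with the longest transcript as the length. Derl1 minus Derl3 was -0.12 ± 0.46, negative in 2 of 3 tumours (exact sign-flip p = 0.75, adjusted 0.75), and positive without division by length and without tumour 1.

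Translocation genes were not at their lowest in tumour 3 by CPM. Sec61a1, the channel subunit, had 260 to 312 CPM, with the smallest highest over lowest ratio of the 36 genes, 1.2. Sec61b, a small subunit of that channel, had 51.9, 115 and 92.7 CPM. Ssr1 and Ssr3, subunits of the translocon-associated complex, had 339 to 467 and 394 to 501 CPM. The signal peptidase subunit gene Sec11c had 184, 230 and 237 CPM. In 4 of the 5 genes tumour 1 was lowest, where 32.5% of all tested genes had their lowest value there. The share was 44.6% of the 1781 other genes at 100 CPM or more in every tumour, a level that 4 of these 5 genes reached. In 0 of 5 was tumour 3 lowest (1 of 5 in TPM), where 33.0% of all tested genes were. Against its paralog Sec11a, Sec11c was higher by 0.76 ± 0.28 on the log2(TPM + 1) scale, a ratio of 1.70, and in each tumour (exact sign-flip p = 0.25, adjusted 0.333). It was 1.32 without division by length.

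**Figure D3:**
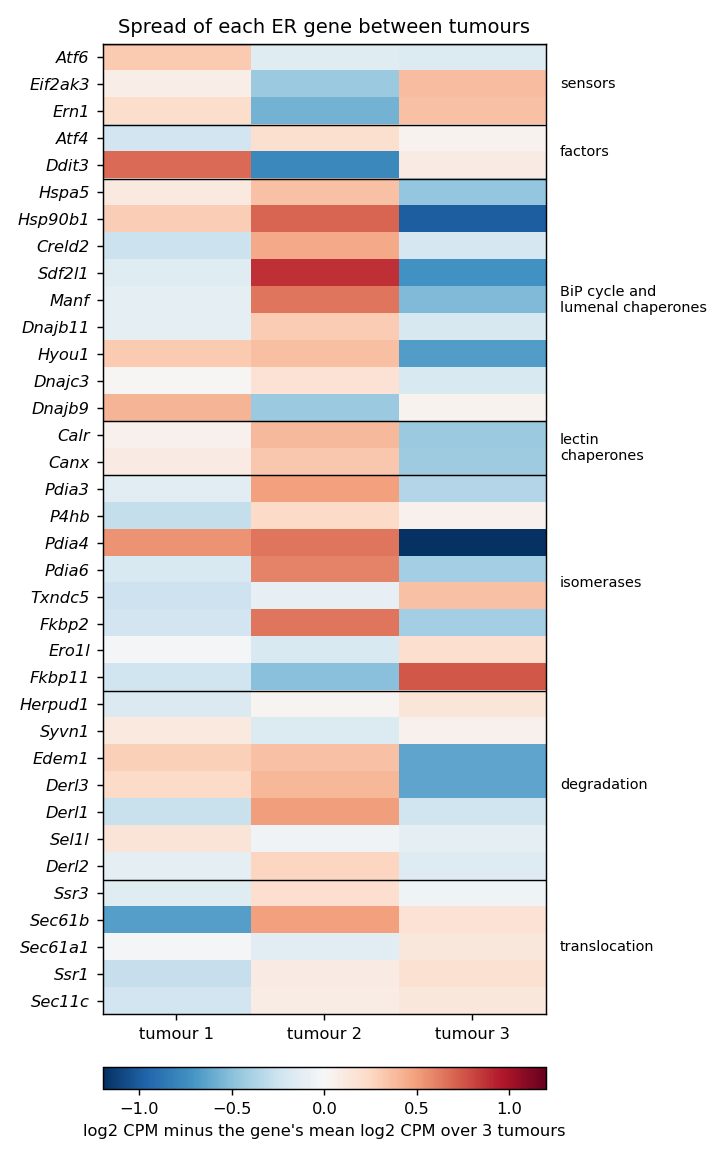
Deviation of each gene in each tumour from its own mean, in log2 CPM, grouped by role (red above, blue below). Most chaperone genes are red in tumour 2 and blue in tumour 3, with Dnajb9 as the exception, and Pdia4 in tumour 3 is the deepest blue.

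Variation between tumours was tested across all genes with an edgeR model that asks whether a gene varied more than genes of similar abundance. At an adjusted p under 0.05 the test called 0 of the 36, where 0.139% of all 11478 genes were called. At an unadjusted p under 0.05 there were 3 of 36, or 8.33%, where 6.27% of all genes were. These were Pdia4 with a 3.55-fold range (edgeR adjusted p = 0.401), Hsp90b1 with a 3.22-fold range (adjusted p = 0.526) and Sdf2l1 with a 3.04-fold range (adjusted p = 0.613). All 3 were lowest in tumour 3. Over the alternatives the edgeR adjusted p ran from 0.127 to 0.998 for Pdia4, from 0.298 to 0.986 for Hsp90b1 and from 0.326 to 0.987 for Sdf2l1. Next by edgeR were Manf (2.24-fold, adjusted p = 0.913), Ddit3 (2.73-fold, adjusted p = 0.951) and Hyou1 (2.04-fold, adjusted p = 0.956). Fkbp11 had a 2.38-fold range on 17 to 43 counts. Ranges over 2-fold were found in 10 of 36 genes (27.8%), near the 28.7% of all genes, and the median range was 1.73-fold against 1.64-fold. Abundant genes have narrower ranges: of genes at 100 CPM or more in every tumour, 4 of 24 of the listed genes (16.7%) and 143 of 1781 others (8.03%) exceeded 2-fold. That limit leaves out genes low in any 1 tumour.

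The order of the tumours was described without a test. Of the 36 genes 22 were highest in tumour 2 (61.1%, where 35.8% of all genes were) and 18 were lowest in tumour 3 (50%, where 33.0% of all genes were). Of genes at 100 CPM or more in every tumour, 16 of 24 listed genes (66.7%) and 47.2% of the 1781 others were highest in tumour 2, and 14 of 24 (58.3%) and 30.0% were lowest in tumour 3. The full order of tumour 2, then 1, then 3 was seen in 16 genes (44.4%, where 17.5% of all genes had it). Lumenal chaperones carried much of this, with 8 of 9 highest in tumour 2 and 7 of 9 lowest in tumour 3, as did both lectin chaperones. Of the isomerases and oxidases 5 of 8 were highest in tumour 2 and 4 of 8 lowest in tumour 3. Of the degradation genes 4 of 7 were highest in tumour 2 and 4 of 7 lowest in tumour 3. The median log2 CPM difference of tumour 2 minus tumour 3 was 0.82 for lumenal chaperones, 0.33 for all 36 genes and 0.02 for all tested genes.

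Gene length moved with the tumour 2 values. Over all tested genes, 53.3% of those in the shortest quartile of exon length and 16.9% of those in the longest were highest in tumour 2. The share lowest in tumour 3 ran from 28.7% in the shortest to 35.5% in the second longest quartile. After a trend on length and GC was taken out of each library, which was tried only once the data had been seen, 23 of 36 genes were highest in tumour 2 and 19 lowest in tumour 3, against 36% and 33.7% of all genes. Lumenal chaperones then had 8 of 9 in each count. In TPM, 15 of 36 were highest in tumour 2 and 19 lowest in tumour 3, against 23.0% and 32.0% of all genes. The lumenal chaperones had 5 of 9 and 8 of 9 in TPM, and the lectin chaperones 1 of 2 and 2 of 2, so the place of tumour 2 above tumour 1 depended on the scale. TPM moved the median gene of tumour 2 to -0.26 against tumour 1 in log2. Macrophage markers summed to 158, 217 and 154 CPM in tumours 1, 2 and 3, and 7 of 11 were highest in tumour 2, with Lyz2 at 7.55, 56.0 and 4.04 CPM. Cd68, the largest part of that sum, was lowest there, at 139, 123 and 142 CPM, and 4 of 11 markers were at or above 1 CPM in every tumour. Plasma cell markers summed to 621, 922 and 615 CPM, and 5 of 11 were highest in tumour 2 and 4 in tumour 1. Jchain was the largest part of the tumour 2 sum, at 35.5, 413 and 232 CPM. Sdc1, another of the 5, had 7, 7 and 5 counts. Mzb1 and Xbp1, also of the 5, are in the wider ER list too, and Mzb1 had 49.0, 93.6 and 31.7 CPM. Irf4 was lowest in tumour 2 at 277, 107 and 189 CPM. B cell markers summed to 4438, 2544 and 2551 CPM. Erythroid markers summed to 9.69, 29.9 and 167 CPM and neutrophil markers to 65.9, 25.3 and 4.04 CPM in tumours 1, 2 and 3, with 4 of 9 and 0 of 11 markers at or above 1 CPM in every tumour. The part of these cells in the order of the tumours was not tested.

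**Figure D4:**
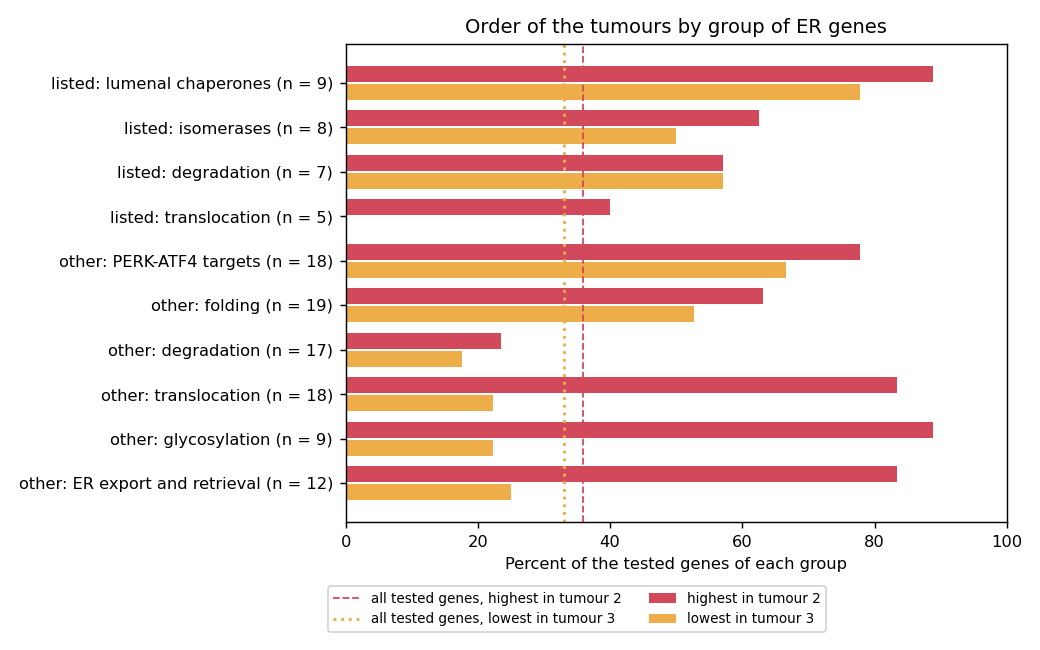
Percent of the tested genes in each group that were highest in tumour 2 (red) or lowest in tumour 3 (yellow), by CPM, with the share over all tested genes as dashed and dotted lines at 35.8% and 33.0%. Listed genes are the 36 described here and other genes are a wider ER list. Lumenal chaperones and targets of the PERK and ATF4 arm exceed both lines, as do isomerases, listed degradation genes and other folding genes, and the listed translocation genes have no bar for tumour 3.

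A wider list of 106 ER and stress genes was read beside the 36. Of these 100 passed the filter on low counts, 0 had an edgeR adjusted p under 0.05, where 0.139% of all genes did. At an unadjusted p under 0.05 there were 9 (9.0%, where 6.27% of all genes were), of which 6 belong to the PERK and ATF4 arm. In all, 66 of 100 were highest in tumour 2, where 35.8% of all genes were. Lowest values fell in tumour 3 for 38 genes and in tumour 1 for 46, where 33.0% and 32.5% of all genes had theirs. In TPM, 50 of 100 were highest in tumour 2, 42 lowest in tumour 3 and 33 lowest in tumour 1. The shares of all genes in TPM were 23.0%, 32.0% and 21.3%. Among the 1781 genes outside the 36 at 100 CPM or more in every tumour, 47.2% were highest in tumour 2. In tumour 1, 44.6% of them were lowest, and 39 of the 106 reached that level. Xbp1, the factor spliced by IRE1, had 93.4, 157 and 60.9 CPM (edgeR adjusted p = 0.807), in the order of the chaperones. Mbtps1, the protease that releases ATF6, had 141 to 168 CPM, and Atf6b, the ATF6 relative, 92.6 to 198 CPM.

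Genes of the PERK and ATF4 arm had the widest ranges of the groups, with a median of 2.18-fold over 18 tested genes. The name is that of the list, and whether PERK acts on these genes here was not tested. Of these 14 were highest in tumour 2 and 12 lowest in tumour 3. Asns, which makes asparagine, had 57.8, 171 and 55.9 CPM (edgeR adjusted p = 0.444). The serine synthesis gene Psat1 had 267, 541 and 232 CPM, and the tRNA synthetase gene Nars had 318, 497 and 227 CPM. Tumour 2 was apart from the others in all 3 genes. The stress factor gene Atf3 had 12.2, 2.98 and 22.2 CPM, and Ppp1r15a, the phosphatase subunit that restores translation, had 166, 80.6 and 108 CPM. Both of these were lowest in tumour 2, as Ddit3 was. Trib3 and Chac1, targets of CHOP and ATF4, were low in every tumour, at 1.5 to 9.36 and 0.521 to 3.74 CPM, and Chac1 did not pass the filter.

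**Figure D5:**
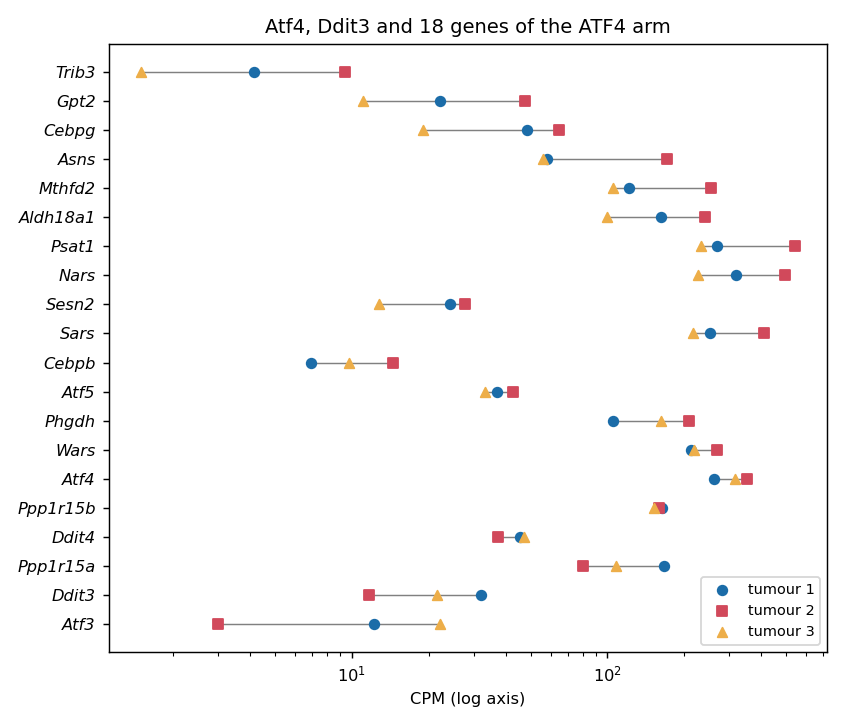
CPM (log axis) of Atf4, Ddit3 and the 18 tested genes of the PERK and ATF4 arm, with 1 symbol per tumour and a line from lowest to highest, ordered by the ratio of tumour 2 to tumour 3. Asns, Psat1 and Nars are at their highest in tumour 2 (171, 541 and 497 CPM), and Atf3, Ddit3 and Ppp1r15a are at their lowest there (2.98, 11.7 and 80.6 CPM).

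The other groups differed in which tumour was lowest, and the genes named for each are those with the most counts, not corrected for length. Of 19 other folding genes 12 were highest in tumour 2 and 10 lowest in tumour 3, with Ganab, a glucosidase subunit, at 242 to 373 CPM and Selenof at 215 to 384 CPM. Of 18 other translocation genes 15 were highest in tumour 2 but 4 lowest in tumour 3 and 12 lowest in tumour 1, with the signal peptidase subunit gene Spcs2 at 231 to 440 CPM and Srp72 at 275 to 335 CPM. The 9 glycosylation genes did likewise, with 8 highest in tumour 2 and 7 lowest in tumour 1. The oligosaccharyltransferase subunit genes Rpn2 and Rpn1 had 431 to 593 and 343 to 525 CPM. Of 12 genes of ER export and retrieval 10 were highest in tumour 2 and 8 lowest in tumour 1, with Sec31a at 259 to 374 CPM and Surf4 at 246 to 335 CPM. Of 17 other degradation genes 4 were highest in tumour 2, below the share over all genes, and 10 in tumour 3, where 31.8% of all genes were. Tumour 1 was lowest for 10 of the 17 and tumour 3 for 3, unlike the listed degradation genes, with 4 of 7 lowest in tumour 3. Ube2j1 had 181 to 309 CPM and Man1b1 155 to 222 CPM.

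The promoter elements shown above were set beside these levels. The 11 genes with a full match to ERSE or ERSE-II had a median of 449 TPM. The 19 without a full match, among them Pdia3 with its near match, had 119 TPM. Of the 11 genes, 9 were highest in tumour 2 and 8 lowest in tumour 3, and of the 19 genes, 10 and 7, where 35.8% and 33.0% of all genes were. The median log2 CPM difference of tumour 2 minus tumour 3 was 0.75 for the 11 genes (range -0.22 to 1.69) and 0.16 for the 19 genes (range -1.25 to 1.83). The ranges overlap, and Pdia4 and Sdf2l1, without a full match, had wider ranges between tumours than any gene of the 11 but Hsp90b1.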

How the data were processed

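Polyadenylated RNA of sorted B220+GFP+ cells was sequenced as single reads of 50 nt, per the labels. The authors deposited whole-number read counts for each gene, in a file for each library. Per the submitters' processing notes the tools were FastQC, STAR 2.5.2b and featureCounts 1.6.0 and the build mm10. Settings, use of strand and annotation: not given in the sources used here. Reads shared with near-identical copies may be lost, and exons of 12 of the 36 genes overlap another annotated gene, which unstranded counting could not separate. Counting by strand could not separate overlaps on the same strand either. These include 105 nt of Ddit3 with a second entry of that name and 133 nt of Hsp90b1 with Gm25745.

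CPM used library sizes scaled by TMM (factors 1.023, 0.9601 and 1.018), in R 4.3.3 with edgeR 4.0.16, and TPM with union exon lengths of GENCODE M21 (GRCm38, the assembly of mm10), which 110 genes lacked. A gene at 0 counts could be present at up to 3 counts, or 0.194 to 0.208 CPM. For 11478 genes kept by filterByExpr, edgeR fitted a quasi-likelihood model with an intercept alone. Residual deviance on 2 degrees of freedom over the robust prior variance was tested one-sided (15.8 prior degrees of freedom). P-values were adjusted over all those genes by the Benjamini-Hochberg method. The test was also tried on simulated counts with known changes, drawn from its own fit, and those values are not given here. A gene that it does not call may still vary between tumours. Differences between 8 pairs of genes used two-sided exact sign-flip tests. Alternatives were DESeq2 1.42.0 size factors, library totals, other filters, a prior without robust estimation, other lengths and pseudocounts, and each tumour left out.

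All 36 genes are given. Values in every tumour were set for sensors, factors, the 10 highest and 3 lowest in TPM, and the 6 genes with the smallest p and the widest range, and 2 genes per role, plus Xbp1, of the wider list. Others named were chosen after their values were seen. The genes, lists and tests were chosen with earlier results of these data known.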

Additional observations from a re-analysis of the deposited data

How the results depend on the processing

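The count of 0 of the 36 genes called by edgeR was the same under every alternative run, with 1 to 5 genes at an unadjusted p under 0.05. The count over all genes was not stable: 16 were called, against 0 with library totals alone, 0 when genes needed a mean count of 10, 0 with a prior variance that is not robust, 164 with no filter, and 0 to 11 with 1 tumour left out (0 without tumour 1, 0 without tumour 2). The cause was not tested. Where 0 of all genes were called, the 0 of the 36 was fixed, so those alternatives say nothing of its stability. Ranges over 2-fold were seen in 10 of the 36 genes, in 2 without tumour 2 and 3 without tumour 3, and in 2 to 8 with any 1 tumour left out, where fewer tumours can differ. Other scalings moved the mean CPM of the 36 genes by at most 1.19%, and leaving out 1 tumour moved it by at most 1.48-fold, for Sdf2l1 from 126 to 85.4 CPM without tumour 2.

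By library totals, 20 of the 36 genes were highest in tumour 2 and 16 lowest in tumour 3. The shares of all genes on that scale were 30.2% and 30.9%. Differences between genes depend on length. With no division by length, Ern1 minus Eif2ak3 was -0.28, Calr minus Canx 0.78, Derl1 minus Derl2 0.92, Sec11c minus Sec11a 1.32, and Derl1 minus Derl3 reversed to 0.61. With the longest transcript, Ern1 minus Eif2ak3 was -0.83, Calr minus Canx 1.75, Derl1 minus Derl3 -0.64 and Derl1 minus Derl2 1.36. Leaving out 1 tumour moved Derl1 minus Derl3 from -0.32 to 0.13, reversed to 0.13 without tumour 1. No paired analysis was possible because the libraries form 1 group. With 3 tumours no sign-flip p below 0.25 can be had, and depth limits Fkbp11, at 17 to 43 counts, more than any other of the 36 genes.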
